A study of Rattus norvegicus with 6 samples.

Results

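The GABA-A receptor subunits were described in rat hippocampus after treadmill training. The genes were Gabra2, Gabra3, Gabra4, Gabra5, Gabra6, Gabrb1 and Gabrd, taken by gene name from 2-colour oligonucleotide arrays. Of the 7 genes, 6 were found under their own name. Gabra2 was listed under an older locus name and was matched through its gene ID in the RefSeq table. Each gene had 1 probe, which gave 7 of the 41012 probes compared.

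Male Wistar rats, 11 weeks old, formed 3 groups. Sedentary controls (CONT) rested on the treadmill. The mild exercise group (ME) ran below the lactate threshold at 15 m/min and the intense exercise group (IE) ran above it at 40 m/min, both for 60 min a day on 5 days a week over 6 weeks. According to the methods these weeks included habituation, which was longer for IE. Habituation used slight electric shocks, some IE rats received more of them later, and IE rats that kept refusing to run were left out of the study. The hippocampus was dissected 24 to 36 h after the last run according to the sample records, whereas the methods give a later time. RNA of 5 rats was pooled in each group, and each pair of pools was hybridized on 2 arrays with the dyes exchanged. All errors below are the SD of those 2 arrays. With 1 pool per group, as the methods give, they hold labeling and hybridization error and no variation between rats. The sample records name 2 pools per group, and then the SD would also hold differences between pools. A probe was called when its ratio was at least 1.5 on one array and at most 0.75 on the dye-swapped array, with a software p value under 0.01 on both. By the methods both exercise pools were compared with the same CONT pool, and IE vs ME comes from a separate slide.

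GABA-A receptors are chloride channels built from several subunits around a central pore, and they carry most of the fast inhibition in the brain. The alpha subunit sets where the receptor sits and which drugs it binds. Receptors with alpha-2 act at synapses of hippocampal pyramidal cells, those with alpha-5 mostly outside synapses on the same cells, and those with alpha-4 and delta carry tonic inhibition in dentate granule cells. The alpha-6 subunit is known chiefly from cerebellar granule cells and not from the hippocampus, which is why Gabra6 was set against the other subunits.

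The sequences of 4 of the 60-base probes are shown, since they pair the Gabra6 probe with the member probe closest to it and give the closest pair of all. Capitals mark bases that differ from the partner in the best alignment without gaps, and bases outside the alignment are in lower case. The probes of Gabra6 (rn3, chr10:27475121-27475180, minus strand) and Gabra4 (chr14:39124766-39124825, plus strand) had 31 identical bases of 57 aligned.
Gabra6: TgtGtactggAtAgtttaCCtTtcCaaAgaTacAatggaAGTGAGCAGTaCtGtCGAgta
Gabra4: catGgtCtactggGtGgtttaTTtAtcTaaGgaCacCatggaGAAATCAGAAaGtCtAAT
The probes of Gabra2 (chr14:39664187-39665243, plus strand) and Gabra3 (chrX:158490096-158495925, minus strand) had 33 identical bases of 54.
Gabra2: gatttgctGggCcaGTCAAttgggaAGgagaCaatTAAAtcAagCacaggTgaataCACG
Gabra3: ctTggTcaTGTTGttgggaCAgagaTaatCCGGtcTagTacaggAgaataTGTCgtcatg
Among the remaining pairs of the 7 probes, identity did not exceed 47.5% over at least 40 bases. The listed positions of the Gabra2 and Gabra3 probes span 1057 and 5830 bases, more than a probe is long. The other probes lie on chromosome 1 (Gabra5, 108922532 to 108922591), chromosome 14 (Gabrb1, 38532824 to 38532883) and chromosome 5 (Gabrd, 172213695 to 172213755). Exons and introns of the rn3 build were not used here.

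Gabra6 was the 1 member called, and it was called higher in ME than in CONT. Called up-regulated were 1 of the 7 subunit probes and 0.11% of all probes. In its ME pool the processed signal was 35.9 on the first array and 26.8 on the dye-swapped array, both well above background. In the CONT pool it was 4.76 and 4.3, neither of them well above background. The ME readings lay above both CONT readings whichever dye ME carried. The log2 ratio was 2.92 and 2.64 on the 2 arrays (2.78 ± 0.19, SD, n = 2 arrays of 1 pool per group), with software p values of 1.2e-09 and 1.85e-05. Because CONT gave only a bound, the fold is stated against the lowest signal that counts as well above background. In the software's background-subtracted signals ME was at least 2.73-fold higher. This bound does not hold under the other background corrections given below. The scanner's signal before background subtraction was 82.4 for ME against 61.4 for CONT on the first array, and 73.8 against 56.7 on the second. Local background around these spots lay between 44.5 and 54. Whether more cells carried the transcript or each cell carried more of it cannot be told apart in bulk tissue.

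With IE no reading of Gabra6 was well above background. The processed signal was 3.71 and 4.53 in the IE pool and 3.85 and 4.64 in the CONT pool of the same arrays. The software therefore gave ratios near 0 (0 and -0.03) that carry no level, and no fold is given for IE vs CONT. No member was called there, against 0.0293% of all probes in either direction.

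On the separate slide that compared IE with ME directly, Gabra6 was again brighter in ME with either dye. The ME pool gave 14.7 in Cy3 and 46.4 in Cy5, and the IE pool 4.45 in Cy5 and 4.99 in Cy3. Of these 4 readings, 1 was well above background, that of ME in Cy5. The bound computed as for ME vs CONT was lower here, 1.81-fold for ME over IE. The log2 ratio of IE over ME was -1.72 with ME in Cy3 and -3.22 with ME in Cy5 (mean -2.47 ± 1.06, SD), with p values of 0.0335 and 7.62e-09. The first p value missed the threshold and Gabra6 was not called, so 0 of 7 members were called in IE vs ME, against 0.0731% of all probes. Without the p threshold it would have been called lower in IE, as were 0.88% of all probes.

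**Figure D1:**
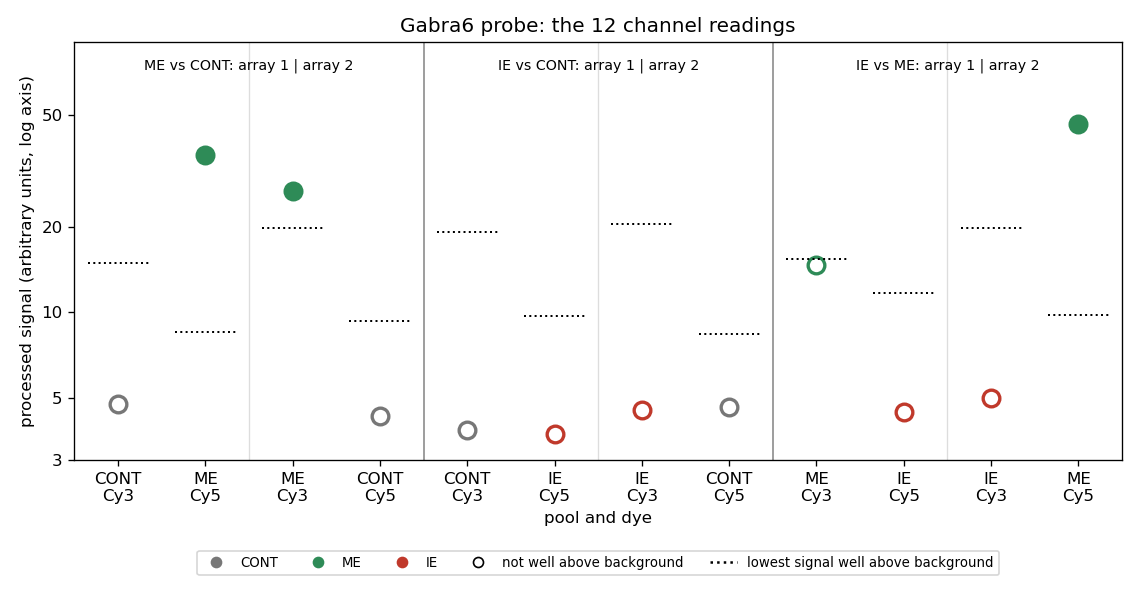
Processed signal of the Gabra6 probe (vertical log axis, arbitrary units) in each of its 12 channel readings, ordered by comparison, array and dye. Filled points are well above background, open points are not, and dotted lines give the lowest signal that was well above background in that channel. The ME readings, from 14.7 to 46.4, lie above every CONT and IE reading (3.71 to 4.99).

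The call of Gabra6 was lost under both alternatives that changed the background correction and the loess fit together. With normexp background correction and loess the log2 ratio of ME vs CONT was 0.23, and with loess and no background subtraction it was 0.34, both positive and too small to be called. Normexp here added an offset of 50 to both channels, and the other setting left the background in. Both settings by construction shrink the ratio of so dim a probe. They therefore cannot tell whether the software overstated its fold.

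The other 6 subunits were well above background in both channels of every array, and none was called in any comparison. The median of their log2 ratios was -0.03 in ME vs CONT, -0.06 in IE vs CONT and -0.01 in IE vs ME. Over all probes it was 0, 0 and -0.0016. The 6 mean ratios lay between -0.08 (Gabra2) and 0.05 (Gabra3) in ME vs CONT, where the bound of Gabra6 was a log2 difference of 1.45. They lay between -0.27 (Gabra3) and 0.02 (Gabrd) in IE vs CONT, and between -0.05 (Gabra5) and 0.22 (Gabra3) in IE vs ME.

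**Figure D2:**
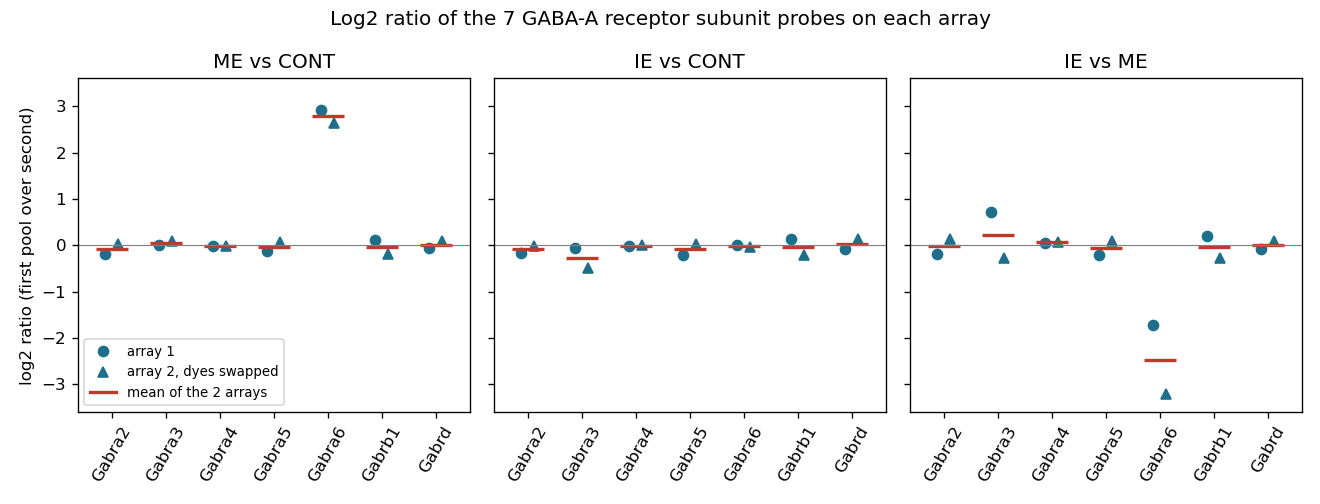
Log2 ratio of each of the 7 subunit probes in the 3 comparisons, the first-named pool over the second. Circles are the first array, triangles the dye-swapped array and bars their mean. Gabra6 stands at 2.78 in ME vs CONT and -2.47 in IE vs ME, while the other means lie between -0.27 and 0.22.

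Of the alpha subunits of hippocampal synapses, Gabra2 had processed signals of 691 and 675 in ME and 787 and 665 in CONT on the ME vs CONT arrays. In IE vs CONT it had 641 and 677 in IE beside 718 and 683 in CONT. The CONT readings overlapped both exercise pools. Its mean log2 ratio was -0.08 ± 0.15 in ME vs CONT, -0.09 ± 0.11 in IE vs CONT and -0.02 ± 0.23 in IE vs ME.

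Gabra3, an alpha subunit prominent in monoaminergic neurons, gave a weak signal. It was 33.5 and 33.6 in ME and between 30.5 and 33.3 in the 4 CONT readings. In IE it was 29.3 and 23.7, below all CONT readings. Signal ranges were also apart in the downward direction for 3.55% of all probes in IE vs CONT, and in the upward direction for 3.22% in ME vs CONT, where Gabra3 and Gabra6 were the members concerned. On the IE vs ME slide the order was not kept, with 48.1 and 83.4 in ME and 78.7 and 68.6 in IE. Its log2 ratio there was 0.71 (p 0.00471) and, with the dyes swapped, -0.28 (p 0.247), so Cy5 was the brighter dye both times and the difference did not follow the pools. Of the other 6 subunits Gabra3 had the largest single-array ratio.

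Among the subunits of tonic inhibition, Gabra4 had a largest single-array ratio of 0.07 in size, the lowest such value of the 6 probes. Its signals were 328 and 302 in ME, 314 and 302 in IE and between 303 and 332 in CONT. The log2 ratio was -0.02 ± 0.0025 in ME vs CONT, -0.0086 ± 0.0055 in IE vs CONT and 0.06 ± 0.011 in IE vs ME. So at the probe closest in sequence to that of Gabra6 the pools differed by little and were not called different.

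Gabra5, which carries much of the tonic current of pyramidal cells, had signals of 785 and 787 in ME, 712 and 760 in IE and 743 to 854 in CONT. Its mean log2 ratio was -0.03 ± 0.13, -0.09 ± 0.17 and -0.05 ± 0.21 in the same order of comparisons. Gabrd, the delta subunit that pairs with alpha-4 in the dentate gyrus and with alpha-6 in the cerebellum, had signals of 2303 and 2475 in ME, 2295 and 2461 in IE and 2247 to 2432 in CONT. The log2 ratio of Gabrd was 0.01 ± 0.11, 0.02 ± 0.15 and -0.0019 ± 0.12. The readings of the 3 pools overlapped for Gabrd. For Gabra5 those of CONT overlapped both exercise pools, while the IE readings lay below the ME readings from other arrays. The share of all probes with such a gap was not computed. On the direct IE vs ME arrays the Gabra5 readings overlapped, at 445.8 to 495.2 in ME and 430.7 to 478 in IE.

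Gabrb1, a beta subunit that helps form the GABA binding site, had signals of 5218 and 4479 in ME, 5088 and 4556 in IE and 4629 to 5275 in CONT. Its log2 ratio was -0.04 ± 0.20 in ME vs CONT, -0.04 ± 0.25 in IE vs CONT and -0.03 ± 0.34 in IE vs ME. Here too the pools overlapped.

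Part of the spread in these ratios followed the dye. Gabrb1 was brighter in Cy5 on all 6 arrays, by a log2 difference of 0.10 to 0.28. Gabra5 and Gabrd were brighter in Cy3 on all 6 arrays, and Gabra2 on 5. Between the arrays of a pair the turned ratio kept its sign for 2 of the 6 probes in ME vs CONT, 3 in IE vs CONT and 1 in IE vs ME. Over all probes well above background this share was 28.6%, 28.2% and 26.7%. Gabra4 kept its sign in all 3 comparisons.

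**Figure D3:**
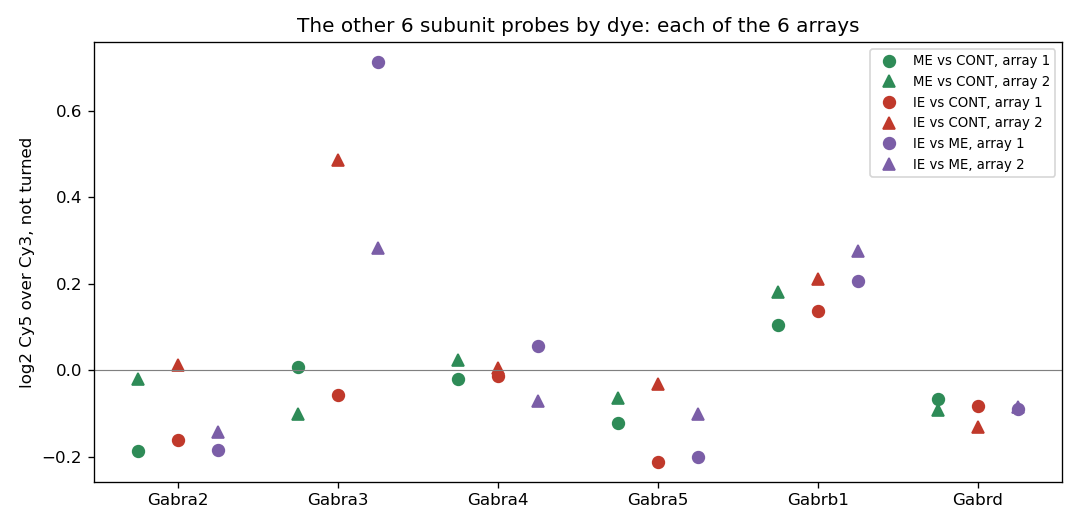
Log2 of Cy5 over Cy3 for the 6 subunit probes other than Gabra6 on each of the 6 arrays, not turned by pool. Points of Gabrb1 lie above 0 and those of Gabra5 and Gabrd below 0 whichever pool carried Cy5, while Gabra3 ranged from -0.10 to 0.71.

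The 3 comparisons can be set against each other, since IE vs CONT minus ME vs CONT gives the difference that IE vs ME measured on other arrays. Gabra6 was left out here, since CONT and IE gave no level. For the other 6 probes the signs were equal in 3, and the gap was at most 0.54, for Gabra3.

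Of the further subunits of the family, 12 genes with 14 probes were measured and 0 were called in any comparison. Their median log2 ratio was -0.03 in ME vs CONT, -0.03 in IE vs CONT and -0.04 in IE vs ME. Gabrb2, a beta subunit gene on chromosome 10 like Gabra6, had a log2 ratio of -0.14 ± 0.22 in ME vs CONT and was not called. Among the further subunits well above background, the largest mean ratios were those of Gabrr2, a rho subunit known from retina, at 0.31 ± 0.09 in ME vs CONT, and of Gabrg3, a gamma subunit, at 0.26 ± 0.32 in IE vs CONT. Gabrg3 had 1.44 and -1.60 in IE vs ME, again the same dye brighter on both arrays. The probes of Gabre and Gabrp were dim, and Gabrp was not well above background in any reading.

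Genes that make, move and clear GABA gave 1 called gene. Slc6a13, the GABA transporter GAT-2 known from the meninges rather than from neurons, was called up in ME vs CONT, 1 of 10 probes against 0.11% of all probes. Its log2 ratio was 0.78 and 0.88 (0.83 ± 0.07, p values 0.000366 and 7.14e-05). In IE vs CONT it was -0.03 ± 0.14, and in IE vs ME it was called down at -0.96 ± 0.16, again 1 of 10 probes, against 0.061% of all. The other genes of this list were not called, and the next largest ratio was that of 1 of the 3 Gad1 probes, the GABA-synthesizing enzyme, at -0.18 ± 0.51 in IE vs CONT. In all, the list of 8 genes and 10 probes had a median of 0.02, -0.04 and -0.04.

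Scaffold, trafficking and chloride transport genes were not called (0 of 20 probes of 12 genes), with a median of -0.03, -0.03 and 0.02. Their largest ratios were -0.24 ± 0.07 for a probe of Slc12a2, the chloride importer NKCC1, in IE vs CONT and 0.20 ± 0.07 for a probe of Nlgn2, the adhesion protein of inhibitory synapses, in IE vs ME. The GABA-B receptor genes Gabbr1 and Gabbr2 had 3 probes, none called, with mean ratios from -0.06 to 0.08.

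Marker genes of other tissue that a hippocampal dissection can carry were read beside Gabra6. The lists were chosen with earlier results of these data known, so their counts are a description only. Of 15 probes of the meninges list, from 11 genes, 9 were called up in ME vs CONT, the direction of Gabra6, against 0.11% of all probes. Probes of the same gene could differ, as Col1a1 had 1.19 at its called probe and 0.24 and 0.13 at others. Dcn (0.17) and Lum (0.07) were not called either. In IE vs ME 8 were called down, against 0.061%. Their median log2 ratio was 0.92 in ME vs CONT, -0.01 in IE vs CONT and -0.67 in IE vs ME, and all were well above background in the ME pool on the slide with CONT. Their summed signal was 13340 and 13700 in ME, 6813 to 7551 in CONT and 6988 to 7136 in IE there. On the IE vs ME slide it was 8985 to 9218 in ME and 4928 to 5120 in IE.

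In the cerebellar granule cell list, which holds Gabra6, 0 of the 12 other probes were called in any comparison. Of all probes 0.11% were called up in ME vs CONT, so a count of 0 does not set this list apart. Without Gabra6 the median was 0.02 in ME vs CONT, 0.06 in IE vs CONT and -0.15 in IE vs ME. The summed signal of these 12 probes was 29270 to 29940 in ME and 27430 to 30460 in CONT. Of them 10 were well above background in all CONT readings, and the sum would not register a signal as low as that of Gabra6. Among the probes well above background the mean ratios in ME vs CONT ran from -0.14 (Barhl2) to 0.35 (Zic1). Fat2, an adhesion gene of granule cells named here after its values were seen, had 1.54 and 1.70 in ME vs CONT with p values of 0.105 and 0.348, and it was well above background in 1 of 2 ME readings and in none of the CONT or IE readings on that slide. En2, Cbln3 and Svep1 were not found by name. For the Purkinje cell and Bergmann glia list 0 of 15 probes were called, against 0.11% of all probes up in ME vs CONT. Its median was 0.02 in ME vs CONT and -0.04 in IE vs ME. Among probes well above background the mean ratios in ME vs CONT ran from -0.11 (Gdf10) to 0.72 (Ppp1r17). Ppp1r17 (0.77 and 0.67), Car8 (0.27 and 0.81) and Pcp2 (0.41 and 0.21) were higher in ME on both arrays. These were named after their values were seen. In IE vs ME Pcp2 had -0.59 and -0.53, Car8 -1.06 and 0.30, and Ppp1r17 -0.63 and -0.08. Mean ratios of Calb1 probes in ME vs CONT lay between -0.01 and 0.03, and those of Itpr1 between -0.08 and -0.01.

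Choroid plexus markers were called in both exercise pools, 3 of 13 probes up in ME vs CONT (0.11% of all probes) and 4 in IE vs CONT (0.0244% of all probes). In IE vs ME 2 were called up (0.0122% of all probes), the direction opposite to that of Gabra6. The median was 0.13, 0.33 and 0.38 in this order. Thalamic, hippocampal neuron and interneuron lists had 0 called probes in each comparison. Hippocampal neuron markers were well above background in all CONT readings for 14 of 16 probes. The part of meningeal, cerebellar or choroid plexus tissue in the Gabra6 ratio was not tested.

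**Figure D4:**
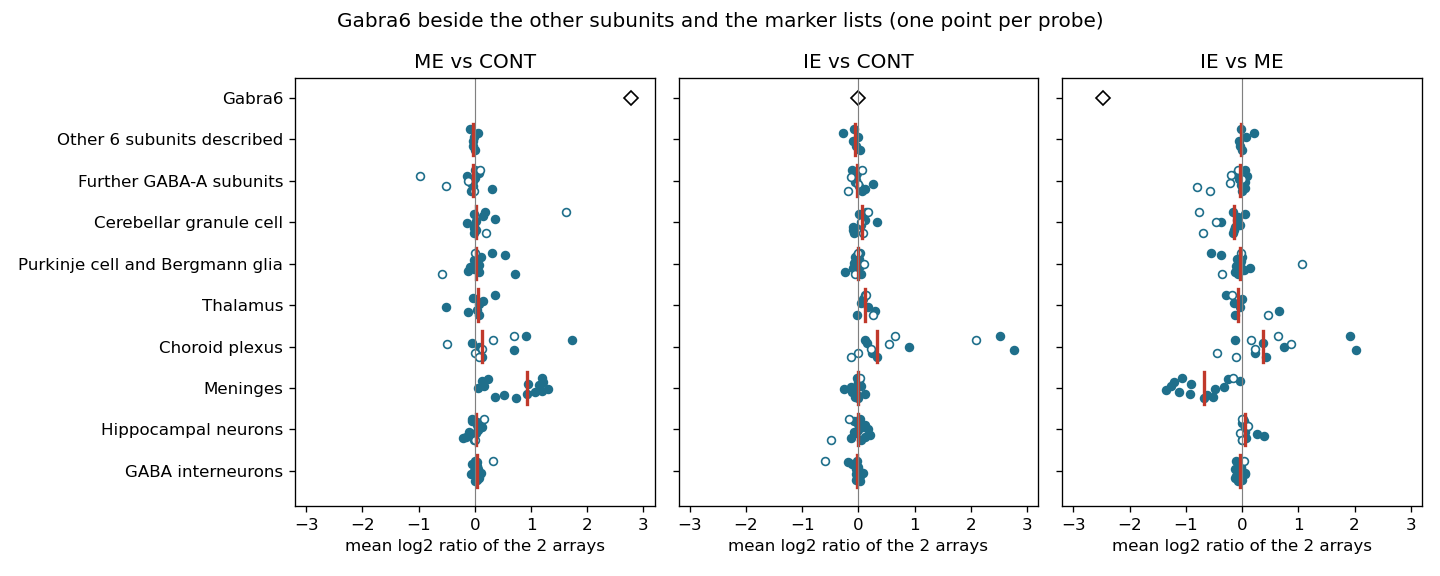
Mean log2 ratio of the 2 arrays for Gabra6 (diamond), for the other subunits and for the marker lists, 1 point per probe, with Gabra6 left out of its lists. Filled points are well above background in all 4 readings, open points are not, and red bars are list medians. The meninges list has medians of 0.92, -0.01 and -0.67, and the medians of both subunit lists lie between -0.06 and -0.01, while open points of the further subunits reach -0.98.

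The probes whose ratios over the 6 arrays ran most like that of Gabra6 were sought among 88 named probes, Gabra6 itself included. These had p under 0.01 and the ME pool well above background on both ME vs CONT arrays. The closest 5 by Pearson's r were Coch (0.995), Defb1 (0.992), Myh11 (0.989), Fmod (0.988) and Ogn (0.987). The arrays share pools and the candidates were chosen by their ME vs CONT values, which by itself favours a high r, so these values are a description that supports nothing further. They also use the IE vs CONT ratios of Gabra6, which carry no level. Defb1, an epithelial antimicrobial peptide, had 2.95 in ME vs CONT and -2.56 in IE vs ME. Its ratio was 0 on both IE vs CONT arrays, and no bound was computed for it. Ogn and Fmod are small proteoglycans of connective tissue, and Myh11 is the myosin of smooth muscle. By Euclidean distance instead of r, 2 of the 5 probes were the same.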

How the data were processed

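The authors scanned 6 arrays and deposited Feature Extraction files (version 9.5.3.1, and 11.0.1.1 for IE vs ME). Per the file headers these hold, per spot, a log10 Cy5 over Cy3 ratio after background subtraction and LOWESS normalization of the dyes, its p-value, raw and processed signal intensity, and flags. A deposited value table holds log10 ratios of the processed signals, which differ from the software's ratio for some dim spots. Log ratios were turned to exercise over CONT and IE over ME and expressed as log2, spots marked as outliers (92 to 302 per array) and 1639 control features were left out, and spots of a probe were averaged. No spot of the 7 probes was saturated. Of the spots, 67.5% to 85.5% per channel were well above background; the number of arrays limits the precision. The sample records name 2 pools per group, the study's methods 1, and the methods were followed. The p threshold compares 2 pools on 1 array, and no test across rats was made. Gene lists, members and the naming rule (genes called, and per list the 2 largest ratios well above background) were chosen with earlier results of these data known. The call rule was tested on simulated data, where it missed most of the changes of log2 1 in size in IE vs ME. A probe not called there can therefore still have changed. The simulation gave every probe of a comparison the same error whatever its signal, so it does not show recovery for dim or bright probes. Gene positions and names came from the first slide's files (rn3 build), 11948 probes also from RefSeq. Tools were Python 3.11 with pandas and R with limma 3.58.1. Some genes of the lists are counted but not reported by name here.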

Additional observations from a re-analysis of the deposited data

Results flagged for a closer look

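Gabra3 was not called, but its ratios against CONT had opposite signs in the 2 exercise pools on every array. Its mean log2 ratio was 0.054 in ME vs CONT (0.0080 and 0.10 on the 2 arrays) and -0.27 in IE vs CONT (-0.06 and -0.48), with software p values of 0.975, 0.722, 0.847 and 0.131, and the difference was not tested. The direct IE vs ME arrays gave 0.71 and -0.28, and the signal of this probe was weak throughout (23.7 to 83.4).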

How the results depend on the processing

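With the p threshold left out, other fold limits, the value table or outlier spots kept, Gabra6 remained the called member in ME vs CONT. Under these settings 45 to 224 of 41012 probes were called up. With normexp and loess, with loess and no background subtraction, or with probes well above background only, 0 members were called in ME vs CONT. Of all probes 12 to 39 were called up there. Gabra6 then had 0.23 with normexp (offset 50) and 0.34 without background subtraction in ME vs CONT, and -0.29 and -0.21 in IE vs ME. Both settings shrink the ratios of dim probes. In IE vs CONT it had -0.043 in the value table and 0.093 when limma fitted all 6 arrays together, with no reading above background. In IE vs ME 1 member, Gabra6, passed without the p threshold, as did 361 of 41012 probes in that direction. Without replicate 1 or without replicate 2 the count of called members was 1 in ME vs CONT, 0 in IE vs CONT and 1 in IE vs ME. In IE vs ME this was Gabra6, called down on the second array alone, and Gabra3, called up on the first. Single arrays call many probes. Of 41012 probes, 1940 were called down on that second array and 1652 up on that first array. In ME vs CONT 720 were called up on the first array alone and 167 on the second. The ratio of Gabra6 then ranged from 2.64 to 2.92, -0.03 to 0 and -3.22 to -1.72. The median of the other 6 ranged from -0.044 to 0.042, -0.070 to -0.0088 and -0.016 to 0.079. Without scaling between arrays the bound of the Gabra6 fold was 2.63 for ME over CONT and 1.71 for ME over IE. Single ratios of the other 6 moved by over 1 SD in 3 of 18 cases under each loess setting, all between -0.09 and 0.11. No paired analysis was possible because the study's methods describe a single pool per group, although the sample records number 2. The number of arrays and the low signal of Gabra6 over background limit what can be read from it.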
